A study of Mus musculus with 9 samples.

Results

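Aminoacyl-tRNA synthetases join each amino acid to its transfer RNA, and every round of protein synthesis draws on their product. Animal cells keep 2 largely separate sets, both encoded in the nucleus: a cytosolic set for the proteins made on cytosolic ribosomes, and a mitochondrial set, imported into the organelle, for the few respiratory chain subunits translated there. The genes were taken by symbol alone, with no measured value, as all entries that carry an amino acid letter followed by "ars" with or without a closing 1 or 2, plus Eprs, Farsa and Farsb. This gave 37 of the 56691 genes in the count files. The symbols ending in 2 are 17 mitochondrial enzymes, such as Aars2, Ears2, Lars2 and Rars2. The other 20 are mainly cytosolic (Aars, Cars, Dars, Eprs, Farsa, Farsb, Gars, Hars, Iars, Kars, Lars, Mars1, Nars, Qars, Rars, Sars, Tars, Vars, Wars and Yars). All 37 passed the filter on low counts.

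The libraries came from mouse BVSC PSCs, a pluripotent stem cell line in which Blimp1-mVenus (BV) and Stella-CFP (SC) report germ cell fate, differentiated as embryoid bodies. Every culture carried the doxycycline-inducible p20 vector, either empty (Ctrl) or with Nrf1 cDNA (NRF1 OE), and was given 1.5 µg/ml doxycycline from day 2 to day 5. Poly(A) RNA was sequenced from cells sorted at day 5 as BV+ (primordial germ cell-like cells, PGCLCs) or BV- (the rest, which the study calls somatic). This gave 2 libraries of BV+ NRF1 OE, 2 of BV+ Ctrl, 3 of BV- NRF1 OE and 2 of BV- Ctrl. The study's methods describe its replicates as biological, and the labels do not say which libraries came from separate cultures, so the p-values measure only the spread between these libraries, which may in part be technical. NRF1 is a transcription factor named for its role at nuclear genes of the respiratory chain, and the comparison of both vectors asks whether enforced NRF1 goes with other levels of the enzymes that supply charged tRNA to the cytosol and to the mitochondrion. Its sequence in the vector was amplified from mouse cells and cannot be told from the endogenous gene in these counts.

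Depth ran from 13702162 to 19625460 counts per library. Levels of a gene across libraries are given as CPM, counts scaled to a common library size with edgeR's TMM factors, and a gene was called where edgeR's quasi-likelihood test, fitted over 16903 genes and all 9 libraries, gave a Benjamini-Hochberg adjusted p under 0.05. Nrf1 itself stood at 95.7 and 99.4 CPM in BV+ NRF1 OE against 91.1 and 90.4 in BV+ Ctrl (log2 fold change 0.10 ± 0.10 SE, adjusted p = 0.489). In BV- it stood at 119.3, 122.0 and 125.6 CPM against 99.1 and 105.2 (0.26 ± 0.09, adjusted p = 0.0718). The targeted gene was higher in every library labelled NRF1 OE than in the matching Ctrl libraries and was not called in either population, so directions below refer to the libraries as labelled. The summed level of 7 germ cell markers, Prdm1 (the gene of Blimp1) among them, was 346–364 CPM in BV+ and 372–524 CPM in BV-. The libraries labelled BV+ thus had no higher sum. Prdm1 spanned 53.2–62.7 CPM in BV+ and 42.4–61.9 CPM in BV-. With the empty vector, Prdm1 and Kit overlapped between BV+ and BV-, and the other markers were lower in BV+. The sum of 7 pluripotency markers was 2262–2772 CPM in BV+ and 2892–3190 CPM in BV-. Klf4 went the other way with either vector, and Tfcp2l1 with the empty one. Between BV+ and BV-, Zfp42 overlapped with either vector, Esrrb with the empty one and Tfcp2l1 with NRF1 OE. The sum of 5 mesenchymal markers was 444–694 CPM in BV+ NRF1 OE and 122–127 CPM in BV+ Ctrl, most of it from the collagen gene Col1a2. It was 15.1–22.5 CPM in BV- NRF1 OE and 12.4–17.0 CPM in BV- Ctrl. All 5 were detected in some library, though Postn fell to 0.0 CPM in BV- NRF1 OE. Twist1 went the other way with the empty vector, at 2.09–2.16 CPM in BV+ and 2.35–2.96 CPM in BV-. With NRF1 OE it overlapped between BV+ and BV-, and in BV+ it overlapped between the vectors. The part of these markers in the results was not tested. In such bulk samples, fewer cells of a type and less RNA per cell cannot be told apart.

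Levels of different genes were compared as the deposited FPKM, which divide counts by length. The cytosolic enzymes were the more abundant set. Their median FPKM over the 9 libraries ran from 17.7 for Cars, the cysteine enzyme, to 161 for Gars, the glycine enzyme, with 46.6 as the middle gene. The mitochondrial enzymes ran from 1.37 for Mars2, the methionine enzyme, to 25.4 for Lars2, the leucine enzyme, with 8.03 as the middle gene. Gars and Kars, the 2 genes known to make both a cytosolic and a mitochondrial enzyme, stood first and second, Kars at 124 FPKM, followed by Vars at 72.3 and Aars at 69.9. The order at the top depends on the length used, since the deposited values imply lengths of 1.00 to 3.21 times the longest annotated transcript. Divided by that transcript instead, Kars was above Gars.

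Set against the cytosolic enzyme for the same amino acid, 15 of the 16 mitochondrial members with a partner were lower in 9 of 9 libraries (phenylalanine was compared through each of Farsa and Farsb, and Pars2 has no separate cytosolic partner because Eprs, a fused enzyme, charges glutamate and proline). The median ratio of cytosolic to mitochondrial FPKM was smallest for leucine at 1.77 (Lars over Lars2), then 2.29 for tyrosine and 2.77 for threonine, and 39.0 for methionine (Mars1 over Mars2), the highest of all pairs. Tryptophan reached 25.6 and asparagine 20.3. Leucine was the exception: Lars was above Lars2 in 6 of 9 libraries, with a ratio between 0.309 and 2.90. The 3 libraries in which Lars2 was above Lars by FPKM were labelled NRF1 OE, 2 from BV- and 1 from BV+. This order too depends on the length used, with implied lengths of 2.85 (Lars2) and 1.35 (Lars) times the longest transcript. Per kilobase of that transcript, the median of Lars2 was above that of Lars, at 74.7 and 57.8 CPM.

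**Figure D1:**
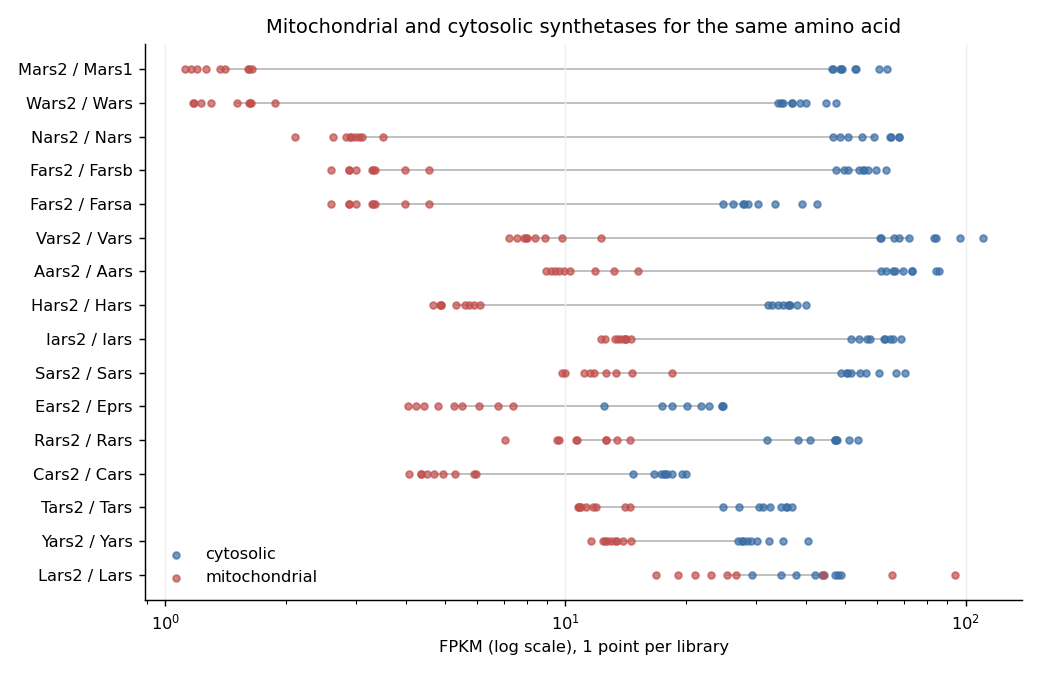
FPKM on a log axis of each cytosolic synthetase and its mitochondrial counterpart, 1 point a library and both classes in their own colour. The pairs are separated in every library except Lars and Lars2, whose points cross.

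The cytosolic set took 0.491–0.569% of all counts in a library. The mitochondrial set took 0.0806–0.176%, and 0.0591–0.0715% once Lars2 was left out. Across the 9 libraries the highest CPM of a cytosolic member was 1.27 times (Hars) to 1.94 times (Eprs) its lowest, and that of a mitochondrial member up to 5.71 times (Lars2).

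In the BV- cells, 10 of the 37 genes were called between NRF1 OE and Ctrl, against 17.2% of all genes tested (10.2% higher and 6.98% lower). Among the mitochondrial enzymes 5 rose (Lars2, Ears2, Aars2, Sars2 and Tars2) and 1 fell (Rars2), and the remaining 11 did not pass the test. Among the cytosolic enzymes 3 rose (Vars, Qars and Farsa) and 1 fell (Nars), with 16 not passing. The calls lay close to the threshold, with adjusted p from 0.0317 to 0.0496, and none of the 10 was called when either BV- Ctrl library, either BV+ Ctrl library or BV- NRF1 OE replicate 3 was left out, or when only the BV- libraries were fitted. In those fits 0 to 35 of all genes tested were called. Without BV- NRF1 OE replicate 2, 4 mitochondrial and 2 cytosolic genes were called (14.6% of all genes), and without replicate 1, 7 and 13 (34.6% of all genes). DESeq2 called 7 mitochondrial and 6 cytosolic genes (23.8% of all genes), and 23 of the 37 had an unadjusted p under 0.05 in edgeR (39.1% of all genes). The median log2 fold change was 0.20 for the mitochondrial set (0.12 without Lars2), 0.03 for the cytosolic set and 0.01 for all genes tested.

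**Figure D2:**
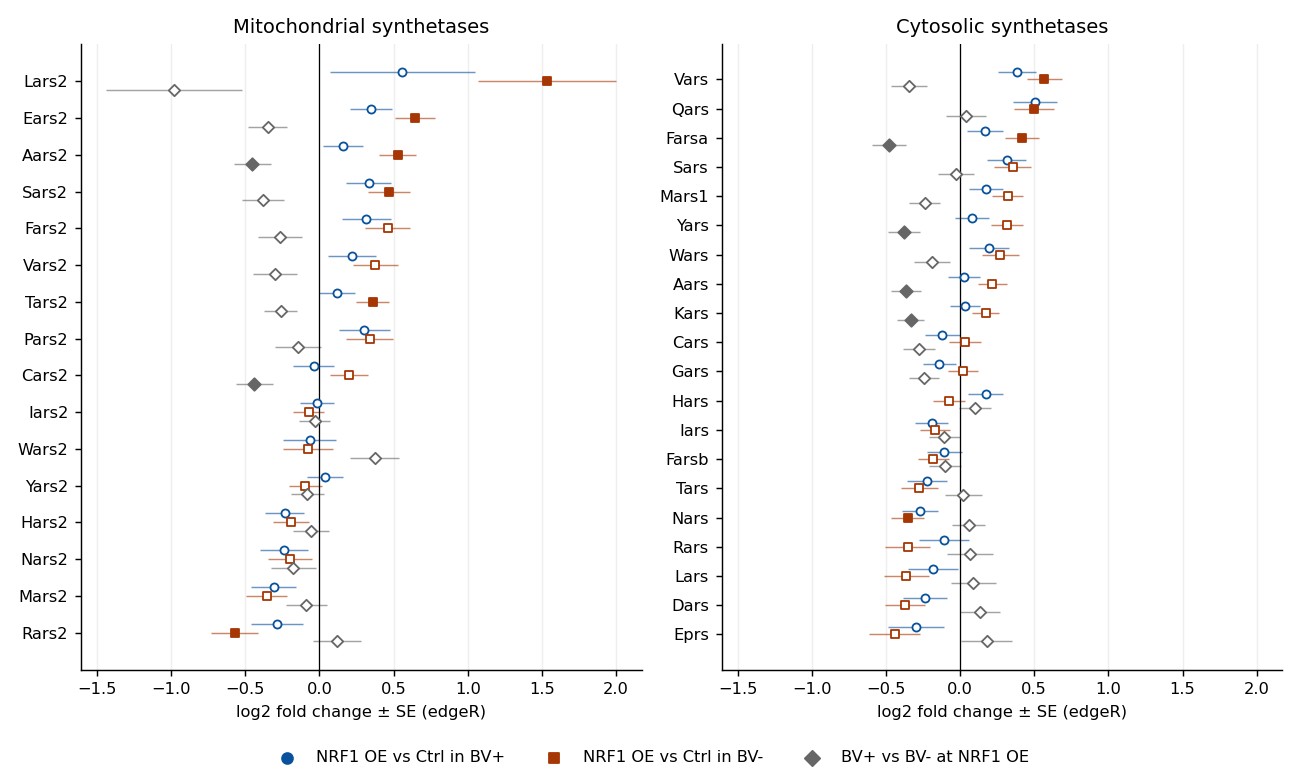
Log2 fold change with its standard error of the synthetase genes in 3 comparisons between groups, filled where edgeR called the gene. Calls appear in BV- between NRF1 OE and Ctrl in each direction, and between BV+ and BV- under NRF1 OE only as lower values in BV+.

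Ears2 (ENSMUSG00000030871), the glutamate enzyme of mitochondria, which also charges the glutamine tRNA there before an amidotransferase finishes the product, was at 35.6, 38.5 and 32.3 CPM in BV- NRF1 OE and at 20.6 and 24.7 in BV- Ctrl (log2 fold change 0.64 ± 0.13 SE, adjusted p = 0.0317). Every NRF1 OE library was above both Ctrl libraries. Aars2 (ENSMUSG00000023938), the alanine enzyme, was at 57.7, 73.1 and 65.0 CPM against 43.4 and 47.05 (0.53 ± 0.12, adjusted p = 0.0317). Sars2 (ENSMUSG00000070699), the serine enzyme, was at 45.1, 61.9 and 50.2 CPM against 36.4 and 39.0 (0.47 ± 0.14, adjusted p = 0.0448). In both of them all 3 NRF1 OE libraries were above both Ctrl libraries, with replicate 2 the highest. Tars2 (ENSMUSG00000028107), the threonine enzyme, was at 84.4, 101.2 and 101.0 CPM against 74.2 and 74.8 (0.36 ± 0.11, adjusted p = 0.0475). Rars2 (ENSMUSG00000028292), the arginine enzyme, went the other way, at 30.1, 19.8 and 27.5 CPM against 39.7 and 37.2 (-0.57 ± 0.16, adjusted p = 0.0391). Here every NRF1 OE library was below both Ctrl libraries and replicate 2 was the lowest.

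Of the cytosolic genes, Vars (ENSMUSG00000007029), the valine enzyme, was at 483, 625 and 560.0 CPM in BV- NRF1 OE and at 367.5 and 382 in BV- Ctrl (log2 fold change 0.57 ± 0.12 SE, adjusted p = 0.0317). Qars (ENSMUSG00000032604), the glutamine enzyme, was at 197, 261 and 227 CPM against 160.3 and 163 (0.50 ± 0.14, adjusted p = 0.0381). Farsa (ENSMUSG00000003808), the alpha subunit of the phenylalanine enzyme, was at 155, 195 and 183 CPM against 129 and 137 (0.42 ± 0.11, adjusted p = 0.0378). None of the 3 overlapped between groups, and replicate 2 was again the highest library. Farsb, the beta subunit that pairs with Farsa, did not pass the test and had the opposite sign (-0.18 ± 0.11, adjusted p = 0.231). Nars (ENSMUSG00000024587), the asparagine enzyme, fell from 294 and 283 CPM in Ctrl to 245, 205 and 228 CPM (-0.35 ± 0.11, adjusted p = 0.0496).

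Next to the threshold on its far side lay Fars2, the mitochondrial phenylalanine enzyme (0.46, adjusted p = 0.0529), Mars1 (0.32, adjusted p = 0.0536), Yars (0.32, adjusted p = 0.0589) and Sars (0.35, adjusted p = 0.0615). The 2 genes that serve both compartments did not pass the test. Gars was at 505, 549.7 and 543 CPM against 495 and 555 (0.02 ± 0.10, adjusted p = 0.899), with the groups overlapping. Kars was at 604, 672 and 633 CPM against 550.0 and 579 (0.17 ± 0.09, adjusted p = 0.184). Eprs, the fused enzyme, was at 371, 228 and 345 CPM against 442 and 412 (-0.44 ± 0.17, adjusted p = 0.0866).

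Of the cytosolic enzymes, 8 (Dars, Eprs, Iars, Kars, Lars, Mars1, Qars and Rars) sit in the multisynthetase complex, a particle held together by scaffold proteins. In BV-, Qars was the 1 of these 8 that was called, and their median log2 fold change between NRF1 OE and Ctrl was -0.26. Of the 12 cytosolic members outside the complex 3 were called, with a median of 0.12. Both counts stand beside 17.2% of all genes called. In the fit with offsets for GC content and length, given below, both sets spanned a similar range. The 8 then ran from -0.22 (Rars) to 0.39 (Qars), and the 12 from -0.26 (Nars) to 0.40 (Farsa). Eprs and Dars, with a GC content of 44.0% and 41.2%, went from -0.44 and -0.37 to -0.04 and -0.03. Over all 37 genes, 26 did not overlap between the NRF1 OE and Ctrl libraries of BV-, a share of the members that stands beside 57.0% of all genes tested.

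**Figure D3:**
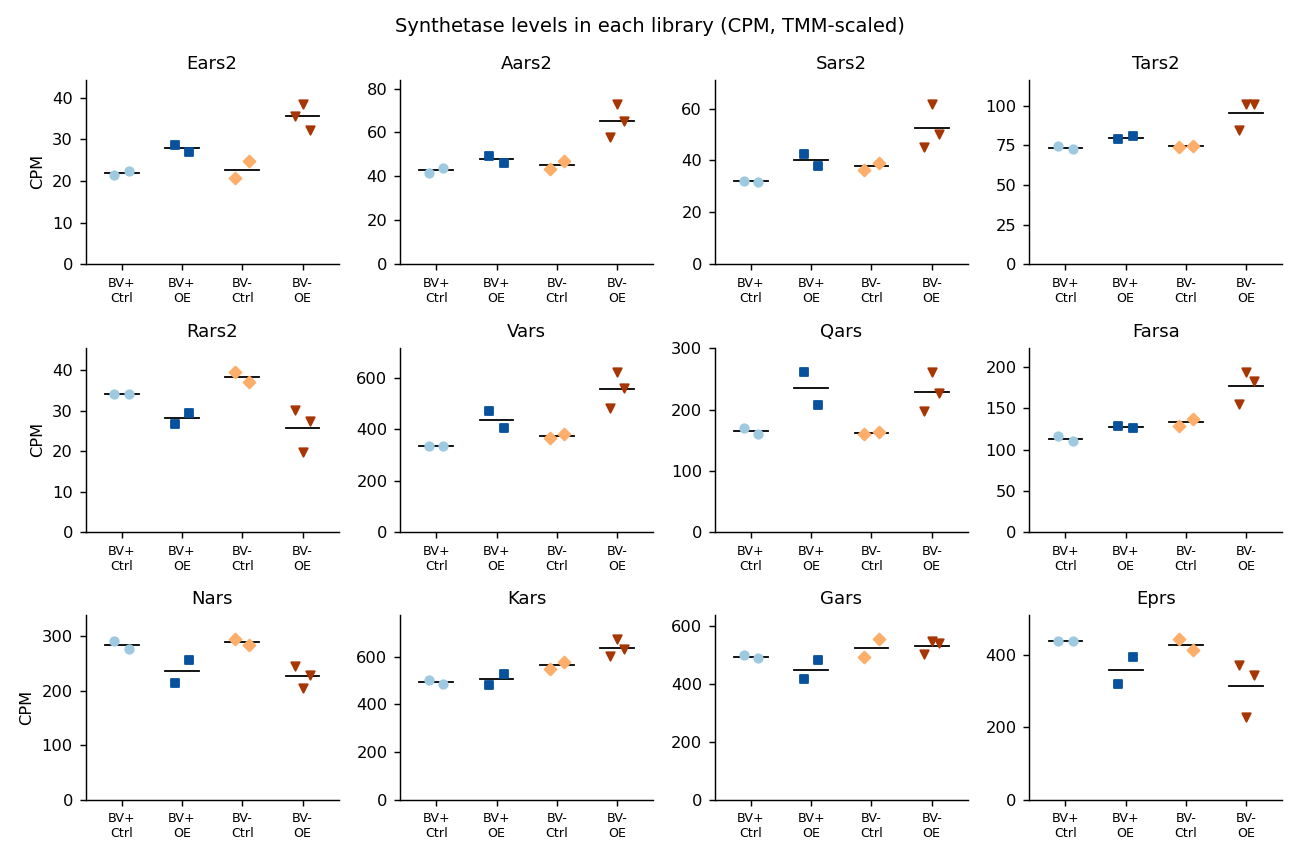
CPM of 12 synthetase genes in each library (points) with the mean of each of the 4 groups (lines): those called in BV- other than Lars2, with Kars, Gars and Eprs. In BV- all NRF1 OE points of Vars, Qars, Farsa, Ears2, Aars2, Sars2 and Tars2 lie above the Ctrl points, and those of Rars2 and Nars below them.

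In the BV+ cells, none of the 37 genes was called by edgeR between NRF1 OE and Ctrl, against 8.02% of all genes tested. At an unadjusted p under 0.05 there were 5 (1 mitochondrial and 4 cytosolic), against 32.5% of all genes, and DESeq2 called 1 of the 37 (Qars), against 12.5% of all genes. Qars was at 262 and 207 CPM in NRF1 OE and 169 and 161 CPM in Ctrl (log2 fold change 0.51 ± 0.15 SE, adjusted p = 0.0565). Vars was at 472 and 404 CPM against 335 and 336 (0.38 ± 0.13, adjusted p = 0.0798). In both genes the NRF1 OE libraries were the higher ones and replicate 1 was above replicate 2. Leaving out BV+ NRF1 OE replicate 2 called Qars (11.5% of all genes were called), leaving out BV- NRF1 OE replicate 1 called Qars and Vars (14%), and leaving out BV- NRF1 OE replicate 2 called these and Eprs (29.4%). Among mitochondrial genes the smallest p-values were those of Ears2, at 28.7 and 27.0 CPM against 21.4 and 22.3 (0.35 ± 0.14, adjusted p = 0.122), and Sars2, at 42.4 and 38.0 CPM against 32.2 and 31.6 (0.33 ± 0.15, adjusted p = 0.161). The median log2 fold change was 0.04 for the mitochondrial set, -0.04 for the cytosolic set and 0.04 for all genes. Without overlap between groups were 26 of the 37, beside 70.1% of all genes.

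The 2 comparisons of vectors use different libraries. Their log2 fold changes had the same sign in 31 of the 37 genes (14 of 17 mitochondrial and 17 of 20 cytosolic), and in 79.4% of all genes tested. Whether the change with NRF1 OE differed by population was tested as a contrast of its own. edgeR called none of the 37 genes and 0% of all genes, and none of the 37 had an unadjusted p under 0.05 (5.51% of all genes). DESeq2 called 0.136% of all genes and none of the 37.

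Base composition moved with the vector in these libraries. Over 12702 genes, Spearman's rho between GC content and a gene's level relative to the other libraries was between -0.602 and -0.515 in the Ctrl libraries, 0.333 and -0.00466 in BV+ NRF1 OE, and 0.0581, 0.695 and 0.58 in BV- NRF1 OE. Among the 37 members, rho between transcript GC content and the log2 fold change between NRF1 OE and Ctrl was 0.804 in BV- and 0.735 in BV+ (0.702 and 0.561 over all genes), as descriptions over genes that share the same libraries. Of the 12 members with a transcript GC content under 47%, 1 had a positive log2 fold change in BV- (median -0.31), and the call among them, Rars2, was a lower one. Of the 16 members from 47% to 53%, 11 were positive and 5 were called higher and 1, Nars, lower. Of the 9 members over 53% GC, all 9 were positive (median 0.35), and 3 of them were called. Over all genes tested in BV-, 10.2% were called higher and 6.98% lower, a share not split by GC content. The 2 classes had similar composition, with a median GC content of 48.2% for the mitochondrial and 49.8% for the cytosolic set.

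**Figure D4:**
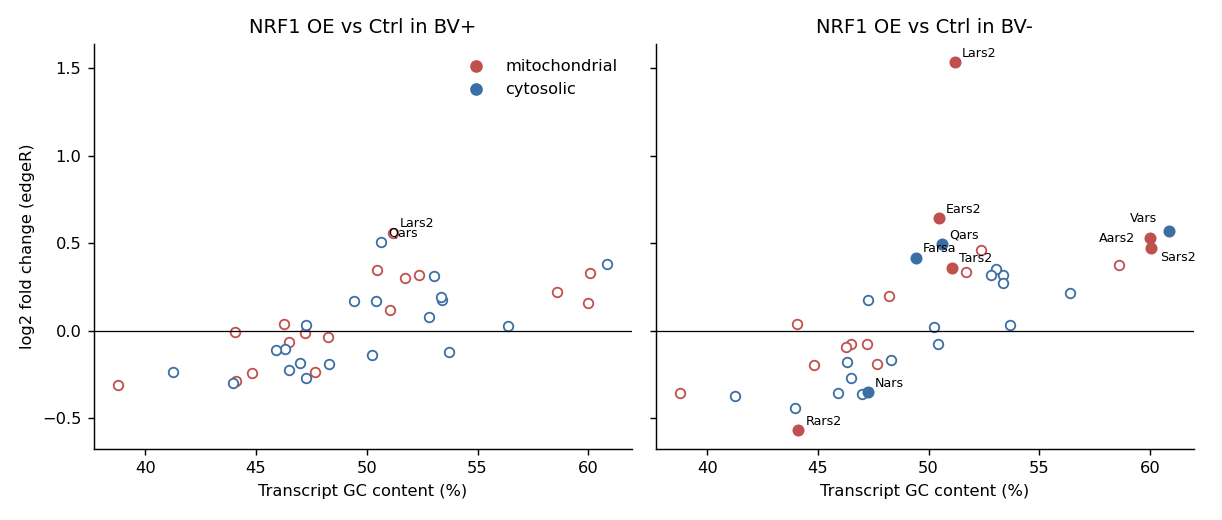
Log2 fold change between NRF1 OE and Ctrl against the GC content of the transcript, 1 point a synthetase gene, for BV+ and BV-. The points rise with GC content in both populations, with rho of 0.735 and 0.804.

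A fit with offsets for GC content and length in each library left Ears2 (0.66, adjusted p = 0.0302) and Farsa (0.40, adjusted p = 0.0326) called in BV-, against 5.43% of all genes. The log2 fold change of Vars went from 0.57 to 0.21, that of Aars2 from 0.53 to 0.13 and that of Sars2 from 0.47 to 0.00 in that fit. Others lost the call with a fold closer to the first, such as Lars2 at 1.44 (adjusted p = 0.0662), Qars at 0.39 (adjusted p = 0.053) and Tars2 at 0.25 (adjusted p = 0.0694). In BV+ the same fit called Qars higher (0.42, adjusted p = 0.0374) and Cars lower (-0.34, adjusted p = 0.0452), against 12.3% of all genes. The median for the mitochondrial set was then 0.17 in BV- and 0.08 in BV+, and for the cytosolic set -0.04 in each (all genes -0.02 and -0.03). What part GC content had in the changes was not tested beyond this.

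Lars2 (ENSMUSG00000035202), the mitochondrial leucine enzyme, had the highest log2 fold change of the 37 genes in BV-, at 1.53 ± 0.47 SE (adjusted p = 0.0458). Its level was 740.0, 1056 and 291 CPM in BV- NRF1 OE and 185 and 295 CPM in BV- Ctrl, so NRF1 OE replicate 3 lay below the higher Ctrl library and the groups overlapped. In BV+ it was at 494 and 211 CPM in NRF1 OE and 229 and 250 CPM in Ctrl (0.56 ± 0.49, adjusted p = 0.431), overlapping again. Lars2 made up 23.1–59.4% of all mitochondrial synthetase counts, depending on the library.

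The level of Lars2 moved with that of Rn18s-rs5, an entry for ribosomal RNA sequence. Rn18s-rs5 gave between 8.51 and 11.6 counts for each Lars2 count in all 9 libraries, while Lars2 spanned 5.71-fold and Rn18s-rs5 6.98-fold. The same 3 libraries stood highest for both. Gm15564, an entry whose annotated transcript shares a run of 52 bases with a Lars2 transcript, was highest in those 3 libraries as well, at 19.4, 11.3 and 11.95 CPM, and at 2.01–5.18 CPM in the other 6. Rn18s-rs5 was itself called in BV- (log2 fold change 1.72 ± 0.47, adjusted p = 0.0385). The part of ribosomal RNA reads in the Lars2 count was not tested.

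**Figure D5:**
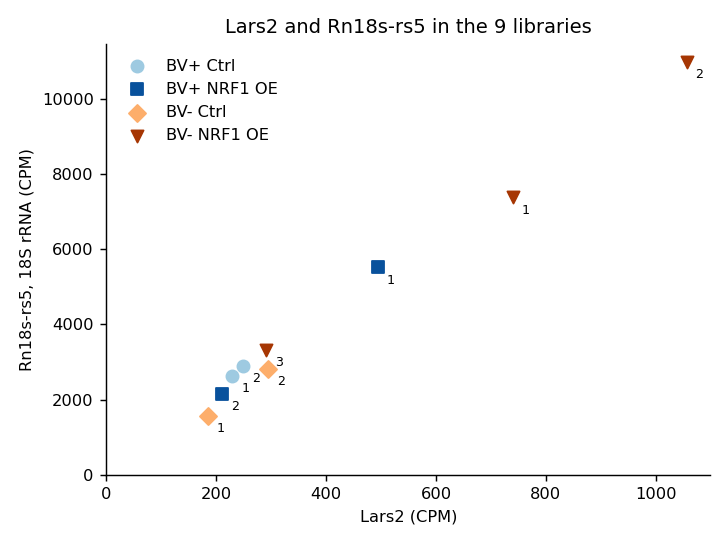
CPM of Lars2 against CPM of Rn18s-rs5 on linear axes, 1 point a library in the colour of its group with its replicate number. The points lie along a line of constant ratio, with 3 NRF1 OE libraries at the upper end.

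Between BV+ and BV- cells with the empty vector, none of the 37 genes was called by edgeR or by DESeq2, and none had an unadjusted p under 0.05, against 1.12% of all genes called by edgeR, 1.79% by DESeq2 and 7.77% at an unadjusted p under 0.05. The members with the smallest p were Wars2, the mitochondrial tryptophan enzyme, at 9.44 and 10.9 CPM in BV+ and 6.87 and 8.97 CPM in BV- (log2 fold change 0.36 ± 0.18 SE, adjusted p = 0.709), and Yars2, at 41.5 and 35.5 CPM against 45.6 and 43.7 (-0.21 ± 0.12, adjusted p = 0.790). Among cytosolic members they were Kars, at 502 and 486 CPM against 550.0 and 579 (-0.19 ± 0.10, adjusted p = 0.734), and Farsa, at 117 and 109.9 CPM against 129 and 137 (-0.23 ± 0.12, adjusted p = 0.748). Wars2 was the higher in BV+ and the other 3 were the lower, none with overlap between the groups. Of the 37 genes, 21 did not overlap (48.0% of all genes). Among them 20 were lower in both BV+ libraries than in both BV- libraries (25.4% of all genes), and 1, Wars2, was higher in both. The median was -0.11 for the mitochondrial set, -0.10 for the cytosolic set and -0.01 for all genes.

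Under NRF1 OE, 6 of the 37 genes were called between BV+ and BV-, against 13.8% of all genes, and all 6 were lower in BV+ (3.85% of all genes were called lower). DESeq2 called 2 mitochondrial and 4 cytosolic genes (13.7% of all genes), 14 of the 37 had an unadjusted p under 0.05 (28.2% of all genes), and 17 did not overlap (39.9%). Farsa was at 128.5 and 126 CPM in BV+ and at 155, 195 and 183 CPM in BV- (log2 fold change -0.48 ± 0.11 SE, adjusted p = 0.0165). Aars2 was at 49.5 and 45.9 CPM against 57.7, 73.1 and 65.0 (-0.45 ± 0.12, adjusted p = 0.0332). Cars2, the mitochondrial cysteine enzyme, was at 29.7 and 31.3 CPM against 36.4, 43.2 and 44.5 (-0.44 ± 0.13, adjusted p = 0.0422). Each of the 3 had both BV+ libraries below all BV- libraries. Yars, the tyrosine enzyme, was at 167 and 168 CPM against 195, 242 and 215 (-0.38 ± 0.11, adjusted p = 0.0385). Aars, the alanine enzyme of the cytosol, was at 577 and 617 CPM against 694, 804 and 809 (-0.36 ± 0.10, adjusted p = 0.0310), and Kars at 482 and 528 CPM against 604, 672 and 633 (-0.33 ± 0.09, adjusted p = 0.0353). No library of these overlapped either. The summed mesenchymal markers were higher in these BV+ libraries, as given above (though Twist1 alone overlapped), and so were 3 neuroectoderm markers, at 110.2–162 CPM against 37.2–47.7. Lower in these BV+ libraries were the summed pluripotency markers, at 2262–2602 CPM against 3038–3190 (though Klf4 was higher, and Zfp42 and Tfcp2l1 overlapped). The summed germ cell markers were lower too, at 353–364 CPM against 436–524 (though Prdm1 overlapped). The part of any of these cell types in the differences was not tested.

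These 6 calls depended on the libraries and on the fit. None was called without BV+ NRF1 OE replicate 1 (4.46% of all genes) or replicate 2 (9.87%). Without BV- NRF1 OE replicate 3 the call was Lars2 alone (8.97%), and without replicate 2 (14.8%) or any of the 4 Ctrl libraries (9.58% to 10.3%) 1 cytosolic gene was called. Without BV- NRF1 OE replicate 1 it was 5 mitochondrial and 6 cytosolic genes (18.8%). Fitting only the libraries labelled NRF1 OE called none (7.8% of all genes). With the offsets for GC content and length, 15 of the 37 were called, all lower in BV+ (8 mitochondrial and 7 cytosolic), against 24.6% of all genes called and 13.3% called lower. The 6 genes above were among the 15. The median was -0.18 for the mitochondrial set, -0.10 for the cytosolic set and 0.00 for all genes, and with the offsets -0.33, -0.14 and -0.07 in the same order. Over the members, rho between GC content and this log2 fold change was -0.645 (-0.309 over all genes).

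Promoters were read from RefSeq (GRCm38.p6), 250 bases before and 50 after the start of each gene, for the 27 members in that table (14 mitochondrial and 13 cytosolic). In a check over 28 promoters, the closing bases were found in a transcript of the gene for 23. Positions below therefore refer to the RefSeq start. The 27 promoters held a median of 18 CpG dinucleotides (7 to 36), against 7 over 27025 promoters. Farsa and Aars2, called in 2 comparisons, are shown first, in lower case with CpG in capitals. Qars follows, called in 1 comparison like several others and taken for its small p between NRF1 OE and Ctrl in BV+.

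Farsa chr8:84856736-84857035 (plus strand): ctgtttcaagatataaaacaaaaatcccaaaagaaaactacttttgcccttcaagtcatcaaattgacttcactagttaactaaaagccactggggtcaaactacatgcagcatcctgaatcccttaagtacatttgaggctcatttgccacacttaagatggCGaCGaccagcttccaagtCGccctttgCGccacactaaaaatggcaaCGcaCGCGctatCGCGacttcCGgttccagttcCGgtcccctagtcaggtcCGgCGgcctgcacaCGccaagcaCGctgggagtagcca
Aars2 chr17:45506582-45506881 (plus strand): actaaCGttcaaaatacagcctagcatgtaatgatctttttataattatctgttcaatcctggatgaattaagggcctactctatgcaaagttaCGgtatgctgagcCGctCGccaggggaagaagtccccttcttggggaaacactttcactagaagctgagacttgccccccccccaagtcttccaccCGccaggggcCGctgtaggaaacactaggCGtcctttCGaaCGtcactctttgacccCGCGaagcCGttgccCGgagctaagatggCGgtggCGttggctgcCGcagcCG
Qars chr9:108507755-108508054 (plus strand): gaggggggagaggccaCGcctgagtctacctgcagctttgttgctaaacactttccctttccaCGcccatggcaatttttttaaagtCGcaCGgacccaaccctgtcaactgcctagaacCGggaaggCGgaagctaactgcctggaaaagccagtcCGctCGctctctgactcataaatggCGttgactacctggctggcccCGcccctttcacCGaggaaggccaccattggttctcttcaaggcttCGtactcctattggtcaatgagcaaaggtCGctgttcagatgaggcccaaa

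NRF1 binds a palindrome with the arms GCGCA and TGCGC. On either strand, the 2 arms side by side were in 0 of the 27 promoters and in 0.971% of 32851 promoters of the same length. A looser form with any base in place of the A of the first arm, which includes the palindrome, was in 5 of 27 (Farsb, Iars2, Kars, Mars2 and Tars), beside 4.60% of all promoters. GCATGCGC, which lies within the palindrome, was in 3 of 27 (Rars2, Vars2 and Wars2), beside 2.71%. Of the 8 genes with either match, 1 (Rars2, lower) was called between NRF1 OE and Ctrl in BV-, beside 17.2% of all genes. The windows around these matches are shown because they are the members with letters of the NRF1 site (6 of the 8, chosen after the values were seen), with the match in capitals. The start is base 1, and the matches begin at base 3 in Mars2, 9 in Iars2, 29 in Farsb, -49 in Kars, -51 in Rars2 and -64 in Wars2.

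Mars2 chr1:55237163-55237204 (plus strand): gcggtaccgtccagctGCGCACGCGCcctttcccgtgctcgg
Iars2 chr1:185329368-185329409 (minus strand): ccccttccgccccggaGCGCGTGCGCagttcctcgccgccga
Farsb chr1:78488848-78488885 (minus strand): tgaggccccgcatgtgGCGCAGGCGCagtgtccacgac
Kars chr8:112011378-112011419 (minus strand): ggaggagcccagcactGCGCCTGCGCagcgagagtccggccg
Rars2 chr4:34614890-34614929 (plus strand): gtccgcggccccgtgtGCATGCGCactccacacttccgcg
Wars2 chr3:99141010-99141049 (plus strand): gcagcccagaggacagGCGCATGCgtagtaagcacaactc

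TGATGCAA, the element bound by ATF4, which drives amino acid supply genes when amino acids are short, was in 4 of 27 promoters, all cytosolic (Aars, Iars, Tars and Yars), beside 0.895% of all promoters. Aars and Yars are shown because both were called lower in BV+ than in BV- under NRF1 OE, as were 3.85% of all genes. Iars (-0.11, edgeR adjusted p = 0.543) and Tars (0.02, adjusted p = 0.927) did not pass there, and their libraries overlapped. Whether the element goes with the level was not tested. A match is a string of letters and not a measured binding site.

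Aars chr8:111033714-111033753 (plus strand): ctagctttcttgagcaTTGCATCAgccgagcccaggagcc
Yars chr4:129189890-129189929 (plus strand): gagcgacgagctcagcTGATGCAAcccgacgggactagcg

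The other genes of tRNA charging and translation were counted from lists set by known function, and their counts stand beside 17.2% of all genes called in BV- (10.2% higher), 8.02% in BV+ and 13.8% between populations under NRF1 OE. Of 3 scaffold genes of the multisynthetase complex, Aimp2 rose in BV- NRF1 OE (log2 fold change 0.58, adjusted p = 0.032), and none passed in BV+, where Aimp2 was at 0.31. None of the 4 genes for the mitochondrial amidotransferase and the formyltransferase passed in either population. Of 17 genes that process or modify mitochondrial tRNA, Hsd17b10, a subunit of mitochondrial RNase P, rose in both BV+ (0.56, adjusted p = 0.0393) and BV- (0.58), and Gtpbp3, which modifies the wobble base, rose in BV- (0.46). Of 10 mitochondrial translation factors, Guf1 (-0.81) and Mtrf1 (-0.60) fell in BV-, and none passed in BV+. Of 6 cytosolic elongation factor genes, 4 rose in BV-: Eef1d, Eef1g (0.60), Eef2 (0.57) and Eif5a (0.48). In BV+ none of the 6 passed, with Eef2 at 0.42 (adjusted p = 0.0681). Of 9 genes for synthetase-like and related proteins, Sepsecs, which makes selenocysteine on its tRNA, fell in BV- (-0.54) and did not pass in BV+ (-0.53, adjusted p = 0.0682). Of 15 genes of the amino acid response, Asns, which makes asparagine, rose in BV- (0.38) along with Ddit4 (0.52), Shmt2 and the amino acid transporter Slc7a5 (0.42). Ddit4 was the 1 of the 15 that rose in BV+ (0.64, adjusted p = 0.0396). Without passing the test in BV+, Mthfd2, a folate enzyme of mitochondria, was at -0.43 (adjusted p = 0.0636), Atf4 at 0.26, Gatb at 0.31, Trit1 at -0.33, Mtif2 at -0.53 and Guf1 at -0.43. Under NRF1 OE, Pus1 (-0.40), Supv3l1 (-0.37), Asns (-0.41) and Slc7a5 (-0.58) were called lower in BV+ than in BV-, and Gatc (0.63) and Ddit4 (0.60) higher. With the empty vector no gene of these lists was called between BV+ and BV-. The calls between vectors depended on the fit. With only the BV- libraries fitted, or with replicate numbers as a block, edgeR called 0 of all genes between NRF1 OE and Ctrl in BV-. In BV+ that block called 3 of all genes tested. Values of the listed genes under the offsets for GC content and length are not given.

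Some members share exon sequence with a neighbour, and the sources used here do not say whether counting used strand. The share of exon length that overlaps another gene was 22.9% in Iars2 (Rab3gap2, opposite strand), 14.3% in Aars (Exosc6, same strand), 9.47% in Farsb (Sgpp2) and 8.72% in Fars2 (Nrn1), and 7.97% in Hars and 4.56% in Hars2, which share bases on opposite strands. Exosc6 was listed with 0 counts in 9 of 9 libraries, which allows up to 3 assigned counts in each. Reads of the stretch it shares with Aars cannot be assigned here, so the 0 does not give the level of Exosc6. Among called genes, Ears2 shared 1.73% of its exon length with Ubfd1. Iars2 did not pass the test in BV- (-0.07, adjusted p = 0.628).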

How the data were processed

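The deposited raw counts per gene and the FPKM beside them were made by the authors, per the labels and the methods, by trimming reads, aligning them with HISAT2 2.0.1 to GRCm39 and counting with HTSeq 0.6.1. The strand setting was not given in the sources used here. FPKM, as deposited, were used only to compare levels between genes. Counts were tested with edgeR 4.0.16 in R 4.3.3: genes were kept by filterByExpr (16903 of 33142 with a count), libraries were scaled by TMM (factors 0.9688 to 1.026), and 1 quasi-likelihood model of all 9 libraries gave each of the 4 groups its own mean. P-values were adjusted by the Benjamini-Hochberg method over all genes tested. The code was tested on simulated data. Alternatives were DESeq2 1.42.0, other scalings, no filter, a fit of the compared groups alone, a replicate block, and offsets for GC content and length. GC content, lengths and overlaps came from GENCODE M21 (GRCm38), matched by gene identifier.

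The members and gene lists were chosen with earlier results of these data known. In each comparison the text gives in full up to 4 called members of each class with the largest change, or the 2 with the smallest p where none was called, the fused and dual-compartment genes, and members called elsewhere. From each other list it names the called genes and up to 3 with the smallest p between NRF1 OE and Ctrl in BV+. The values of some genes are not reported here.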

Additional observations from a re-analysis of the deposited data

How the results depend on the processing

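The number of called members depended on the fit. With no filter on low counts, 1 mitochondrial and 2 cytosolic genes were called between NRF1 OE and Ctrl in BV+ (10.4% of all genes), 5 and 9 in BV- (13.3%), and the difference between populations was called for 1 (Lars2; 0.326%). DESeq2 called 1 cytosolic gene in BV+ (12.5%). Fitting only the groups compared called 3 cytosolic genes in BV+ (26.8%), and 0 of either class in BV- (0%) and between BV+ and BV- under NRF1 OE (7.8%). The offsets for GC content and length called 2 cytosolic genes in BV+ (12.3%), 1 of each class in BV- (5.43%), and 8 mitochondrial and 7 cytosolic genes between BV+ and BV- under NRF1 OE (24.6%).

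Replicate numbers shared between groups gave correlations of deviations of -0.032 in BV+, 0.204 and 0.243 in BV-, -0.104 between populations in Ctrl, and -0.138 and -0.295 in NRF1 OE, so the numbers were not taken to pair libraries. With them as a replicate block, 0 mitochondrial and 0 cytosolic genes were called in BV- (0% of all genes), and 0 and 0 between populations under NRF1 OE (6.29%). With the block and the offsets together it was 0 and 0 in BV- (0.012%), and 6 mitochondrial and 5 cytosolic genes between populations (15.1%). The block called 0.716% of all genes between populations in Ctrl, and crossed numbers, tried after the data were seen, called 0 members.

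Leaving out each BV- NRF1 OE library in turn gave up to 3 cytosolic calls in BV+, where 3.94% to 29.4% of all genes were called. In BV- it gave up to 7 mitochondrial and up to 13 cytosolic calls (0.207% to 34.6% of all genes). Between populations under NRF1 OE it gave up to 5 and up to 6 (8.97% to 18.8%). The number of member calls thus moved with the number of calls over all genes.

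Under the offsets the log2 fold change turned sign in 12 of the 37 members in BV+, 8 in BV-, 3 between populations under NRF1 OE and 2 in Ctrl, Mars2 in BV- going from -0.36 to 0.41 and Aars2 in BV+ from 0.16 to -0.23. Among the members the rule names in each comparison, it turned without and with the block for Sars2 in BV+ (-0.11 and -0.11) and, in BV-, for Cars (-0.22 and -0.27), Gars (-0.089 and -0.099), Iars2 (0.17 and 0.18) and Nars2 (0.074 and 0.13). Sars2 in BV- was at -0.00071 under the offsets alone, and Cars at -0.027 under the block alone. Leaving out 1 library put Cars between -0.034 and 0.089 and Gars between -0.060 and 0.092, neither of them called. Of the other alternatives for named members, 477 kept direction and stayed called or not called as before, 154 kept direction and lost the call, and 20 gained one. Many named members were not called in the main fit and had no call to lose. The 477 are thus no measure of how well calls held. The cause of these shifts was not tested.

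The mitochondrial median in BV+ was -0.00699 with only the groups compared, 0.085 under the offsets and 0.095 with the block added, and 0.015 to 0.13 with 1 library left out. The cytosolic median with 1 library left out was -0.072 to 0.055 in BV+ and -0.047 to 0.091 in BV-, where the offsets gave -0.035 and the block added -0.070. Between populations in Ctrl, the offsets gave -0.15 without and -0.15 with the block for the mitochondrial set. For the cytosolic set they gave -0.12 and -0.12, DESeq2 and its size factors -0.12, no filter -0.084, and leaving out 1 library -0.16 to -0.072. Under NRF1 OE the mitochondrial median was -0.33 with the offsets and -0.34 with the block added, and the cytosolic one -0.14 to -0.030 with 1 library left out. The depth of these libraries gave each member at least 96 counts, and the 2 or 3 libraries per group limit the precision.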
